A study of Arabidopsis thaliana with 17 samples.

Results

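The ATG genes of Arabidopsis thaliana encode proteins of autophagy, the pathway by which a cell wraps part of its own content in a membrane and sends it to the vacuole. They were chosen by symbol alone, as every gene with a probe set of its own (a set that the array's annotation gives to 1 gene) whose symbol is ATG followed by a number, with or without a letter. This gave 8 genes out of 13350 that the annotation names alone on the array. They are ATG3 (AT5G61500), ATG8B (AT4G04620), ATG8C (AT1G62040), ATG8D (AT2G05630), ATG8E (AT2G45170), ATG8F (AT4G16520), ATG8G (AT3G60640) and ATG8H (AT3G06420). No measured level entered that choice, but the family was picked out for description with results of these arrays known, so the p-values describe these arrays and are no independent evidence for the family. The array also holds ATG8A and ATG8I under the older symbols APG8A and APG8H, and these are given beside the members as relatives.

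ATG8 is a small ubiquitin-like protein. The protease ATG4 trims its end, the E1-like enzyme ATG7 activates it, and the E2-like enzyme ATG3 passes it on to a membrane lipid, so that ATG8 comes to sit on the growing autophagosome, where it also binds cargo receptors. The kinase complex of ATG1, ATG13, ATG11 and ATG101 starts the process. Among the plant ATG8 proteins, A to D and E to G form related subgroups, whereas H and I stand apart and lack the tail that ATG4 removes. Autophagy recycles nutrients in starved and ageing tissue, and vacuolar proteases break down what it delivers.

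RNA came from seeds of Ws-0 plants, a laboratory accession, untreated and 38 to 46 days old, with globular embryos 24 to 32 µm across. Whole seeds and 7 compartments, all cut out by laser from fixed and paraffin-embedded sections, were hybridised to ATH1 arrays. The compartments were the suspensor, which anchors and feeds the embryo, the embryo proper, the chalazal, micropylar and peripheral parts of the endosperm, which is the nutritive tissue, and the chalazal and general parts of the maternal seed coat. Chalazal endosperm had 3 arrays and every other group had 2, called biological replicates in the labels, for 17 arrays in all. Nothing in the labels says which seeds or plants a capture came from, so p-values measure the spread between these samples only. Whether the probes of 1 ATG8 gene also bind transcripts of another was not tested. The question was in which parts of a young seed each gene is active. A level is a linear intensity of an array scaled as a whole, given as mean ± SD over a group's arrays, and a difference is on the log2(intensity + 31) scale ± SE. An adjusted p comes from limma over all 22746 probe sets, with 0.05 as threshold. A lower level in a captured tissue can mean fewer cells with the transcript or less of it per cell, and these arrays cannot tell them apart.

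The background limit of an array is the highest signal among 27 control probe sets for bacterial genes that were not spiked in (49.2 to 144), and 44.5 to 66.0% of an array's sets exceeded it. Of the marker genes, 3 of 12 for embryo, 3 of 10 for endosperm and 3 of 12 for seed coat had a probe set of their own, and both chalazal seed coat markers did. The summed embryo markers reached 1180.0 to 1262 in the embryo proper and 588 to 879 in the suspensor, although YAB3 was not above the limit on any array. The same sum was also 322 to 468 in chalazal and 205 to 342 in general seed coat. PHV stood at 289 to 342 and 118 to 282 in these 2 parts, against 116 to 193 in the suspensor. The summed endosperm markers reached 3854 to 6028 in chalazal, 1806 to 2038 in micropylar and 8369.5 to 9204 in peripheral endosperm, and were 138 to 144 in the embryo proper. Single endosperm markers were uneven: AGL62 stood at 3659.9 to 5713, 705 to 1017 and 2236 to 3647 in these 3 parts in that order, MPC was high in the peripheral part alone (5556 to 6056, against 75.6 to 308 in the chalazal part), and IKU2 was not above the limit on any of the 3 chalazal endosperm arrays. The summed seed coat markers were 19793 to 22418 in chalazal and 38026 to 41201 in general seed coat, but also 1607 to 2518 in micropylar and 1287 to 1574 in peripheral endosperm, mostly DFR, and INO was not above the limit on either chalazal seed coat array. SWEET10, a sugar transporter of the chalazal seed coat, stood at 5967 to 7073 there and at 11.2 to 108 in chalazal endosperm. GAPDH signal at the 3′ end divided by that at the 5′ end, which rises as amplified RNA gets shorter, was 10.8 to 27.7 in chalazal, 10.9 to 22.7 in micropylar and 6.37 to 13.2 in peripheral endosperm, 8.38 to 16.5 in the embryo proper, 5.45 to 7.10 in the suspensor, 4.67 to 7.73 and 4.73 to 5.86 in chalazal and general seed coat, and 2.88 to 3.09 in whole seed.

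The ATG genes did not share a pattern over the seed. The embryo proper had the lowest mean log2 level of 5 of the 8 (ATG3, ATG8C, ATG8D, ATG8E and ATG8F) and peripheral endosperm that of ATG8G, whereas the lowest place of ATG8B and of ATG8H is not read because 2 or more compartments had no array above background. Chalazal endosperm had the highest mean of 4 (ATG3, ATG8D, ATG8F and ATG8H), chalazal seed coat of ATG8B and ATG8E, micropylar endosperm of ATG8C, and the suspensor of ATG8G. All 8 passed the F test for any difference among the 7 compartments, which 54.1% of all probe sets passed as well. Of 168 tests of a gene between a pair of compartments, 69 passed after joint adjustment over all probe sets and 21 pairs, against 19.9% of such tests over the array.

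**Figure D1:**
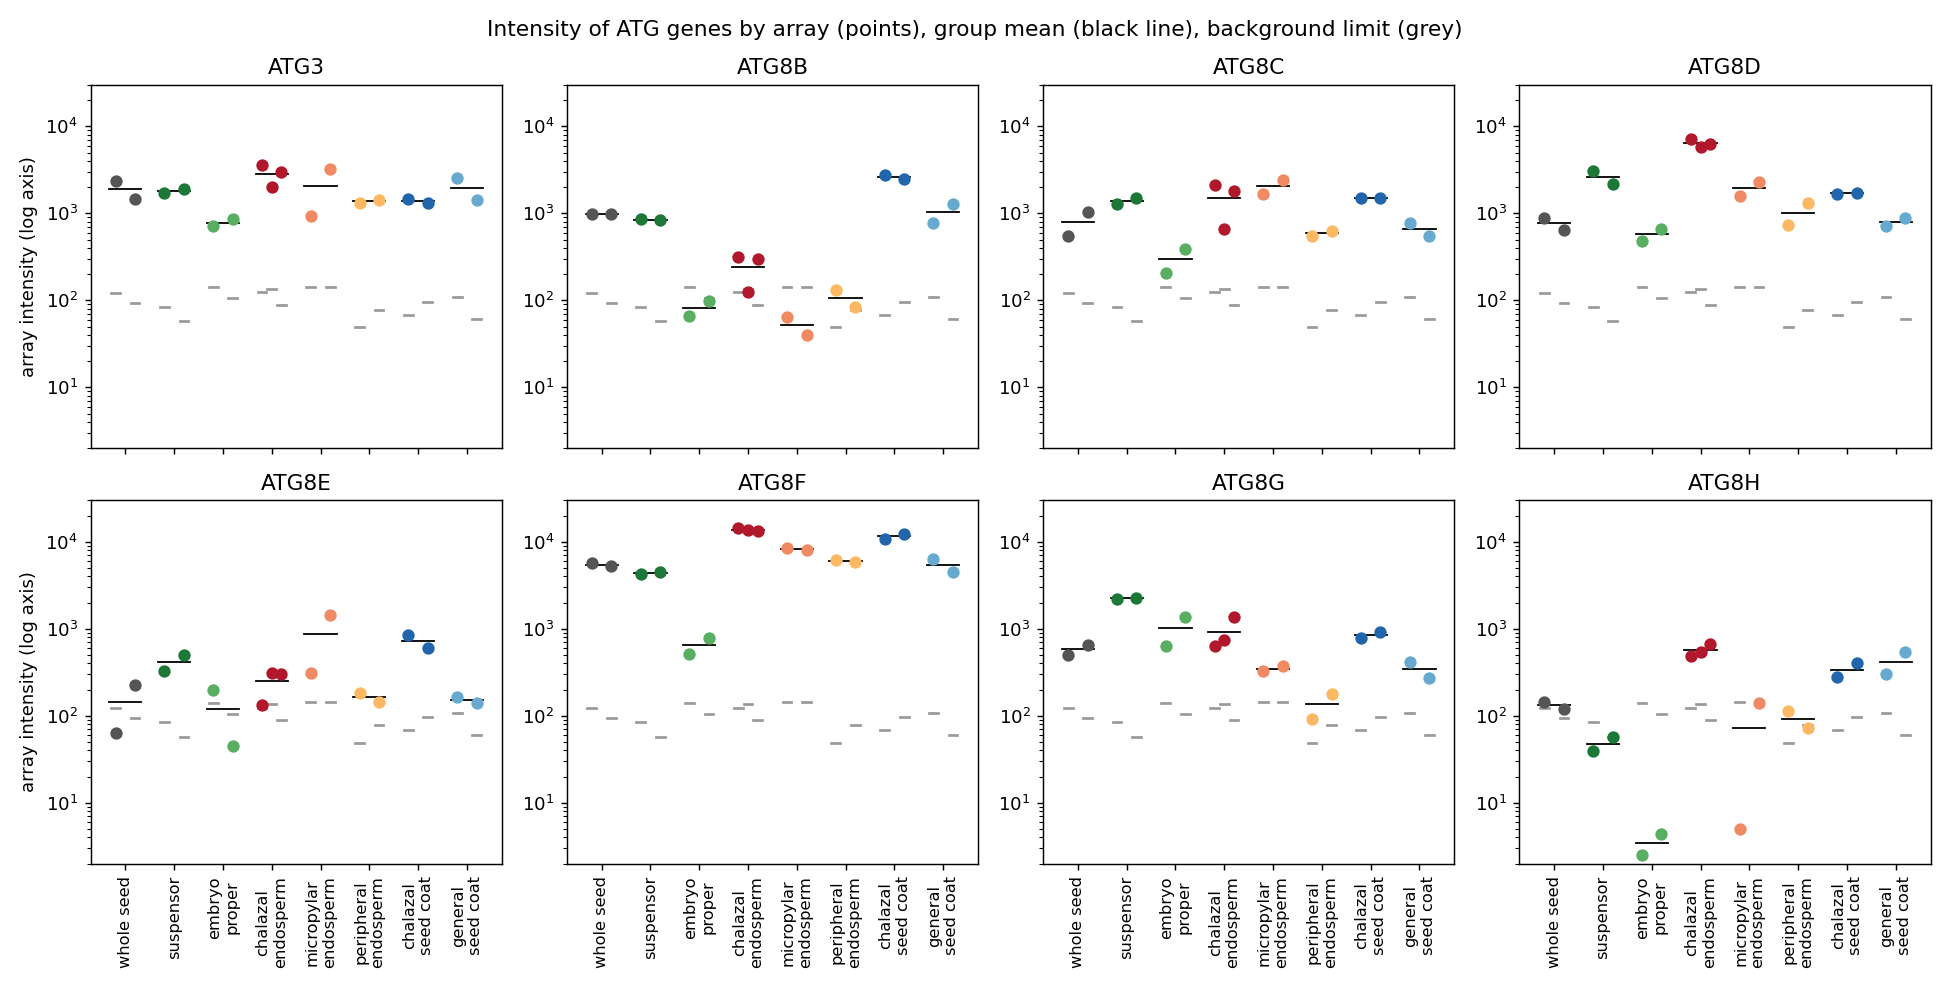
Intensity of the 8 ATG genes on each of the 17 arrays (points, log axis), with the mean of each group (black line) and the background limit of each array (grey dash). ATG8D and ATG8F peak in chalazal endosperm, ATG8B in chalazal seed coat and ATG8G in the suspensor, and the embryo proper is lowest for 5 genes that can be read there.

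ATG3, the E2-like enzyme that hands ATG8 to its lipid, varied least of the 8. ATG3 gave 2327 and 1476 in whole seed, 1726 and 1889 in the suspensor and 712 and 856 in the embryo proper. In endosperm, ATG3 gave 3585, 1987 and 2962 in the chalazal part, 931 and 3232 in the micropylar part and 1308 and 1438 in the peripheral part. In seed coat, ATG3 gave 1466 and 1316 in the chalazal part and 2526 and 1426 in the general part. The embryo proper arrays lay below all 15 others, and the micropylar arrays were farther apart than any other pair. Only 1 of the 21 pairs passed, chalazal endosperm over embryo proper (2844 ± 805 against 784 ± 102, SD, n = 3 and 2; difference 1.78 ± 0.43; adjusted p = 0.00320). The F test was close to the threshold (adjusted p = 0.0372) and was lost in 12 of 25 alternatives, with adjusted p up to 0.165 without the first embryo proper array. The other losses came without the second embryo proper array, either suspensor array, the first or the third chalazal endosperm array or either chalazal seed coat array, and with no offset, quantile scaling, no intensity trend or a replicate block.

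ATG8B, of the A to D subgroup, was highest in the seed coat parts and the suspensor. ATG8B gave 977 and 981 in whole seed, 865 and 829 in the suspensor and 65.6 and 98.1 in the embryo proper. In endosperm, ATG8B gave 311, 124 and 296 in the chalazal part, 64.4 and 40.4 in the micropylar part and 131 and 82.8 in the peripheral part. In seed coat, ATG8B gave 2735 and 2484 in the chalazal part and 779.7 and 1294 in the general part. Seed coat, suspensor and whole seed arrays did not overlap with those of endosperm and embryo proper. No array of embryo proper or micropylar endosperm was above its background limit, nor was 1 of the 3 chalazal endosperm arrays. Of its 21 pairs, 14 passed (F test, adjusted p = 1.1e-08). Chalazal seed coat was at least 21.3-fold above embryo proper and at least 18.2-fold above micropylar endosperm, where each array of the dimmer side not above background is set at its limit.

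ATG8C, of the same subgroup, was highest in micropylar endosperm. ATG8C gave 549 and 1025 in whole seed, 1285 and 1509.8 in the suspensor and 207 and 390.0 in the embryo proper. In endosperm, ATG8C gave 2104, 664 and 1793 in the chalazal part, 1687 and 2401 in the micropylar part and 552 and 629 in the peripheral part. In seed coat, ATG8C gave 1520.4 and 1514 in the chalazal part and 777 and 551 in the general part. Embryo proper was below every other array, and the second chalazal endosperm array fell among the peripheral and general seed coat arrays, away from the other two. Micropylar endosperm stood 2.69 ± 0.51 above embryo proper (adjusted p = 2.2e-04), and 6 of 21 pairs passed (F test, adjusted p = 3.7e-04).

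ATG8D was highest in chalazal endosperm at this stage and above background on every array. ATG8D gave 894 and 649.6 in whole seed, 3057 and 2188 in the suspensor and 482 and 664 in the embryo proper. In endosperm, ATG8D gave 7077, 5873 and 6302 in the chalazal part, 1585 and 2281 in the micropylar part and 727 and 1316 in the peripheral part. In seed coat, ATG8D gave 1687 and 1731 in the chalazal part and 724 and 886 in the general part. The chalazal endosperm arrays lay above all 14 others. They exceeded each of the other 6 compartments past the threshold, from 1.30 ± 0.37 over the suspensor (adjusted p = 0.0124) to 3.43 ± 0.37 over the embryo proper (adjusted p = 8.4e-08; 11.3-fold).

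ATG8E, of the E to G subgroup, lay closer to background and varied between arrays. ATG8E gave 63.1 and 228 in whole seed, 331 and 507 in the suspensor and 197 and 44.7 in the embryo proper. In endosperm, ATG8E gave 133, 310.2 and 303 in the chalazal part, 311 and 1437 in the micropylar part and 185 and 143 in the peripheral part. In seed coat, ATG8E gave 858 and 608 in the chalazal part and 163 and 139.6 in the general part. The micropylar arrays differed more from each other than most groups did, and 1 of 2 arrays in embryo proper and in whole seed was not above background. On the log2 scale chalazal seed coat led micropylar endosperm by only 0.09, and micropylar endosperm came first under quantile scaling, under a common 75th percentile and without the first micropylar or the first chalazal seed coat array. Embryo proper, the lowest, gave way to general seed coat without its second array. Chalazal seed coat stood 2.52 ± 0.69 above embryo proper (adjusted p = 0.00860) and 5 of 21 pairs passed (F test, adjusted p = 0.00969).

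ATG8F was above background on every array and separated the embryo proper from the rest of the seed. ATG8F gave 5656 and 5290.4 in whole seed, 4265 and 4561 in the suspensor and 513 and 788 in the embryo proper. In endosperm, ATG8F gave 14488, 13593 and 13359.6 in the chalazal part, 8614 and 8115 in the micropylar part and 6214 and 5929 in the peripheral part. In seed coat, ATG8F gave 10804 and 12313 in the chalazal part and 6292 and 4468 in the general part. The embryo proper arrays were the lowest by a wide gap, and the chalazal endosperm arrays were the highest without overlap. All 6 comparisons with the embryo proper passed, the smallest being that of the suspensor and the largest that of chalazal endosperm (4.37 ± 0.29; 21.7-fold; adjusted p = 2.1e-11). Chalazal endosperm led chalazal seed coat by 0.26 ± 0.29, which did not pass (adjusted p = 0.627), and quantile scaling put chalazal seed coat first.

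ATG8G, of the same subgroup, was by contrast highest in the suspensor. Its embryo proper arrays overlapped with those of chalazal endosperm and chalazal seed coat. ATG8G gave 504 and 656 in whole seed, 2188 and 2281 in the suspensor and 636 and 1383 in the embryo proper. In endosperm, ATG8G gave 634, 754 and 1373 in the chalazal part, 329.7 and 369.6 in the micropylar part and 92.1 and 179 in the peripheral part. In seed coat, ATG8G gave 784 and 917 in the chalazal part and 416 and 273 in the general part. Both suspensor arrays were above all others and both peripheral endosperm arrays below them. Peripheral endosperm stood at -3.82 ± 0.51 relative to the suspensor (adjusted p = 2.0e-06) and at -2.59 ± 0.51 relative to the embryo proper (adjusted p = 3.4e-04). In all, 8 of 21 pairs passed (F test, adjusted p = 7.5e-06).

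ATG8H, the member that needs no trimming by ATG4, was near background in the embryo. ATG8H gave 144 and 119 in whole seed, 39.2 and 56.5 in the suspensor and 2.54 and 4.35 in the embryo proper. In endosperm, ATG8H gave 491, 539.6 and 665 in the chalazal part, 5.03 and 139 in the micropylar part and 114 and 72.2 in the peripheral part. In seed coat, ATG8H gave 276 and 401 in the chalazal part and 303 and 537 in the general part. None of the 4 embryo arrays and neither micropylar array was above background, and 1 of 2 peripheral arrays was. Chalazal endosperm and both seed coat parts were above background on all 7 arrays, and the general seed coat arrays overlapped with both of the others. Chalazal endosperm was at least 4.59-fold above embryo proper (adjusted p = 1.0e-05), at least 8.04-fold above suspensor and at least 3.91-fold above micropylar endosperm. The order among embryo proper, suspensor and micropylar endosperm rests on values below the limit and is not read.

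Most neighbours in these orders could not be separated. Of 48 steps from a compartment to the next lower one, those among compartments below background included, 3 passed: ATG8B from suspensor to chalazal endosperm (1.76), ATG8D from chalazal endosperm to suspensor (1.30) and ATG8F from suspensor to embryo proper (2.73). Without the second suspensor array, 1 step passed. The leading compartment was thus separated from the next for ATG8D alone.

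Suspensor and embryo proper, both parts of the embryo, differed in 4 of the 8 ATG genes, all higher in the suspensor, and none was called lower; 8.25% of all probe sets were called higher there, and 6.37% were called lower. The median difference of the 8 was 1.94, against -0.02 over all probe sets, with values below background taken as they are. ATG8F stood at 4413 ± 209.7 in the suspensor against 651 ± 195 in the embryo proper (SD, n = 2 each; 6.93-fold; difference 2.73 ± 0.32; adjusted p = 2.7e-07). ATG8B was higher by 2.98 ± 0.53 (at least 6.93-fold, adjusted p = 1.2e-04), ATG8C by 2.17 ± 0.51 (adjusted p = 0.00216) and ATG8D by 2.13 ± 0.41 (adjusted p = 2.7e-04). These 4 calls held in all 25 alternatives. The differences of ATG3 (1.18), ATG8E (1.75) and ATG8G (1.22) had the same sign and did not pass (adjusted p = 0.0844, 0.0770 and 0.0947). ATG8H was not above background on any of these 4 arrays, and its direction is not read. The relatives ATG8A and ATG8I were higher in the suspensor as well, by 2.01 ± 0.41 and 1.83 ± 0.46 (adjusted p = 6.4e-04 and 0.00434). Seed coat markers moved with these genes, with a sum of 870.5 to 891 in the suspensor and 108 to 134 in the embryo proper, as did endosperm markers (374 to 543 against 138 to 144), while the GAPDH ratio was 5.45 to 7.10 in the suspensor and 8.38 to 16.5 in the embryo proper. Their part in the result was not tested.

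Taken as the mean of its 2 parts, the embryo differed from the mean of the 3 endosperm parts in 6 of 8 ATG genes. ATG8B and ATG8G were higher in the embryo (15.5% of all probe sets were) and ATG8C, ATG8D, ATG8F and ATG8H lower (11.0% were), with a median of -0.75 against -0.04 over all probe sets. ATG8F had the largest difference (-2.37 ± 0.20, adjusted p = 9.3e-10 in limma). In ATG8D, the suspensor mean (11.35 on the log2 scale) was above those of the micropylar (10.92) and peripheral (9.98) parts. Chalazal endosperm stood at 12.65 and the embryo proper at 9.22. ATG8G was higher by 1.96 ± 0.32 (adjusted p = 2.5e-05) and ATG8H lower (at least 1.20-fold higher in endosperm, with no embryo array above background; adjusted p = 0.00192). Of the 7 endosperm arrays, 4 were above background for ATG8H, namely all 3 chalazal arrays and 1 peripheral array. ATG8B was higher by 1.13 ± 0.34 (at least 1.72-fold; adjusted p = 0.0120), with the suspensor alone above, since the embryo proper arrays lay among those of micropylar and peripheral endosperm; without the second embryo proper array its adjusted p was 0.0553. ATG8D (-0.89 ± 0.26; adjusted p = 0.00982) was lost without the first embryo proper array (adjusted p = 0.0538) or the second suspensor array (adjusted p = 0.0733). ATG8C (-0.85 ± 0.32; adjusted p = 0.0493) lay at the threshold and was lost in 18 of 25 alternatives, among them all leave-outs of 1 array but those of the second embryo proper, the first micropylar and the second chalazal endosperm array, with adjusted p up to 0.228.

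Against the mean of both seed coat parts, the embryo was higher in ATG8G (1.38 ± 0.36; adjusted p = 0.00473), against 10.1% of all probe sets. It was lower in 3 members, against 13.6% of all probe sets. These 3 were ATG8H (at least 3.97-fold higher in seed coat; adjusted p = 2.5e-05), ATG8B (at least 5.03-fold higher in seed coat; adjusted p = 1.8e-05) and ATG8F (-2.19 ± 0.23; adjusted p = 2.4e-08). All 4 calls held in the 25 alternatives. Not every part differed, however. In ATG8B, the suspensor arrays (829 to 865) lay within the range of general seed coat (779.7 to 1294). In ATG8G, the embryo proper arrays (636 to 1383) overlapped with those of chalazal seed coat (784 to 917). ATG8D, called between the means of embryo and endosperm, gave 0.06 ± 0.29 here, with a 95% interval from -0.54 to 0.65. Its embryo parts lay on opposite sides of seed coat. The suspensor arrays (2188 to 3057) were above and the embryo proper arrays (482 to 664) below every seed coat array (724 to 1731).

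Between endosperm and seed coat, ATG8B set the tissues apart most, at -3.54 ± 0.34 in endosperm relative to seed coat (at least 10.7-fold higher in seed coat; adjusted p = 2.8e-09). ATG8D was higher in endosperm by 0.95 ± 0.26 (adjusted p = 0.00487; 11.8% of all probe sets were higher) and ATG8H lower (-1.16 ± 0.42; at least 1.87-fold higher in seed coat; adjusted p = 0.0350; 19.9% were lower, which also takes in ATG8B). In ATG8H, chalazal endosperm had the highest mean of all compartments. The lower ATG8H call came from micropylar endosperm (0 of 2 arrays above background) and peripheral endosperm (1 of 2). The ATG8D difference rested on the chalazal part, since micropylar and peripheral arrays overlapped with those of seed coat. That of ATG8H was lost in 8 of 25 alternatives, with adjusted p up to 0.235 under quantile scaling, 0.141 under a common 75th percentile and 0.164 without the second general seed coat array; the other losses came without an offset and without the first micropylar, the second peripheral or either chalazal seed coat array.

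**Figure D2:**
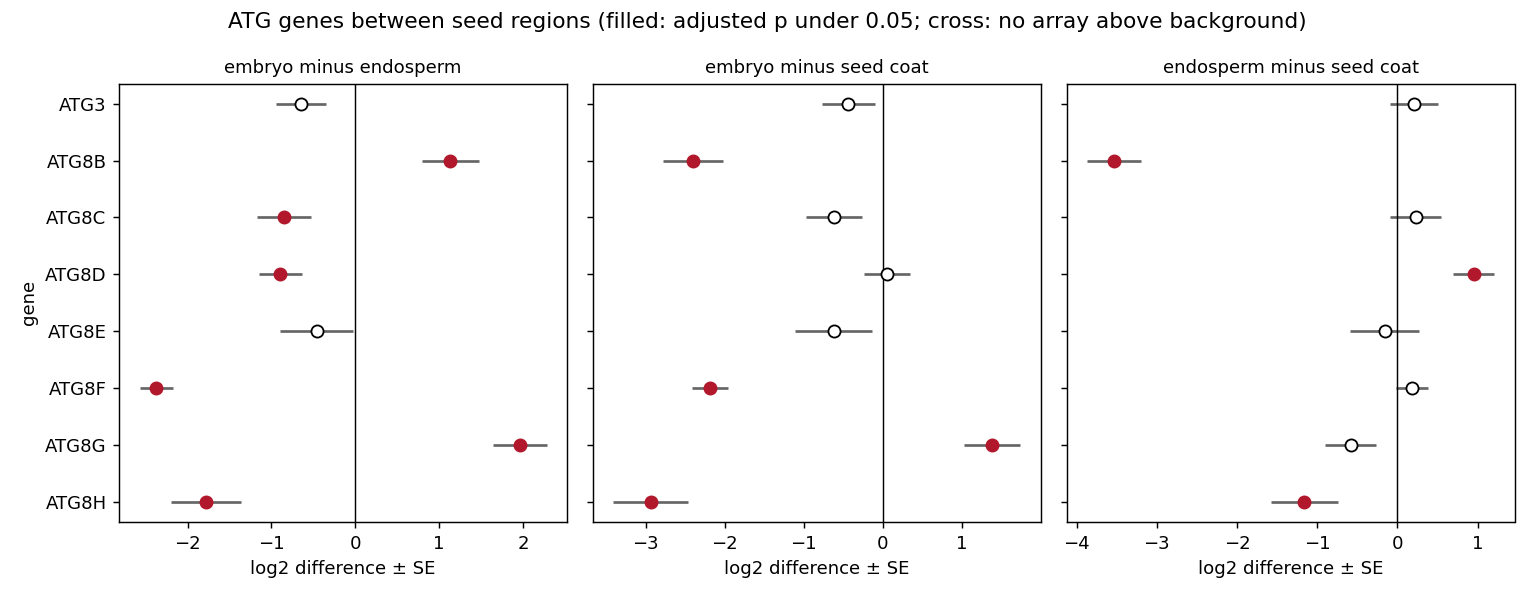
Differences between seed regions for the 8 ATG genes on the log2 scale (points, with SE as bars), filled where the adjusted p is under 0.05 (a gene below background on part of the arrays is plotted at its values as they are). ATG8B and ATG8G lie right of 0 for embryo minus endosperm, ATG8F and ATG8H lie left of 0 in both comparisons of the embryo, and ATG8B lies far left for endosperm minus seed coat.

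Within endosperm, each ATG difference called for the chalazal part was in its favour. Relative to peripheral endosperm, 4 of 8 members were higher in chalazal endosperm (10.3% of all probe sets were) and 0 lower (13.8% were), and the median was 1.18 against 0.10 over all probe sets. ATG8D stood at 6417 ± 609.8 in chalazal against 1021 ± 417 in peripheral endosperm (SD, n = 3 and 2; 6.54-fold; adjusted p = 4.2e-06), and ATG8G at 920.2 ± 396 against 136 ± 61.7 (6.76-fold; adjusted p = 1.9e-04). ATG8F was higher by 1.18 ± 0.29 (adjusted p = 0.00361) and ATG8H by 2.27 ± 0.61 (at least 5.96-fold; adjusted p = 0.00724; 0.0727 without the second peripheral array and 0.101 with no offset). Relative to micropylar endosperm, 3 members were higher in chalazal endosperm (8.45% of all probe sets were) and 0 lower (11.8% were). These were ATG8H (at least 3.91-fold; adjusted p = 7.1e-04), ATG8D (1.73 ± 0.37; adjusted p = 9.7e-04) and ATG8B (at least 1.57-fold; adjusted p = 0.0148). The ATG8H call was lost without the first micropylar array (adjusted p = 0.0591) and the ATG8B call without the second (adjusted p = 0.0914).

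Micropylar endosperm, which surrounds the embryo, was higher than peripheral endosperm in 1 member, against 7.21% of all probe sets, and no member was lower, against 7.65%. The member was ATG8C, at 2044 ± 505 in micropylar against 590.1 ± 54.5 in peripheral endosperm (SD, n = 2 each; difference 1.72 ± 0.51; adjusted p = 0.0144). It was lost without the second micropylar array (adjusted p = 0.101) or the first peripheral array (adjusted p = 0.0685). ATG8E, at 1.87 ± 0.69, had the larger difference and the larger error, and did not pass (adjusted p = 0.0560). GAPDH ratios were 10.8 to 27.7, 10.9 to 22.7 and 6.37 to 13.2 in chalazal, micropylar and peripheral endosperm, and summed seed coat markers 247 to 737, 1607 to 2518 and 1287 to 1574; their part in these differences was not tested.

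Within the seed coat, 2 of 8 members were higher in the chalazal than in the general part (4.51% of all probe sets were) and 0 lower (4.85% were), with a median of 1.15 against -0.05 over all probe sets. ATG8F stood at 11558 ± 1067 in the chalazal part and 5379.9 ± 1290.0 in the general part (SD, n = 2 each; difference 1.12 ± 0.32; adjusted p = 0.0118). ATG8E gave 733 ± 177 in the chalazal part and 151 ± 16.5 in the general part (SD, n = 2 each; difference 2.05 ± 0.69; adjusted p = 0.0343). Neither is firm: ATG8E was lost without any of the 4 seed coat arrays (adjusted p from 0.0740 to 0.177) and with no offset, and ATG8F without the second chalazal array (adjusted p = 0.0876), without the second general array (adjusted p = 0.146) or with no intensity trend (adjusted p = 0.0860). ATG8B, ATG8C, ATG8D and ATG8G differed by 1.06 to 1.35 and did not pass. At an unadjusted p under 0.05 in limma, 1 member was lower in chalazal than in micropylar endosperm (ATG8E), and 0 were lower in the part named first in the other 4 comparisons within regions.

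**Figure D3:**
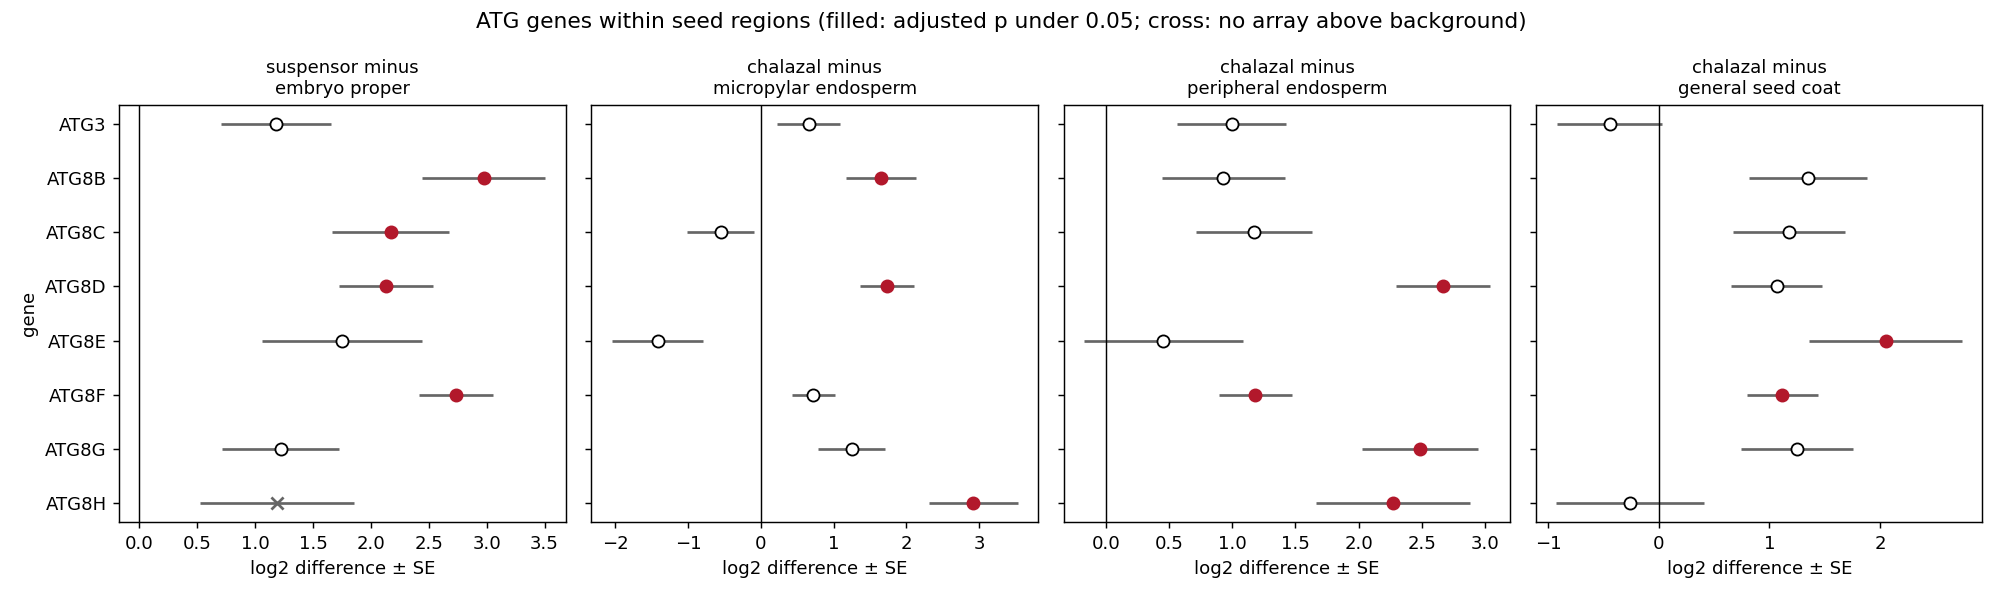
Differences within seed regions for the 8 ATG genes on the log2 scale (points, with SE as bars), filled where the adjusted p is under 0.05, with a cross where no array of either side is above background. For suspensor minus embryo proper the 7 genes other than ATG8H, which has a cross, lie right of 0, as do all 8 for chalazal minus peripheral endosperm, and 4 are filled in each.

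Chalazal tissue of endosperm and of seed coat touch each other in the seed but differ in origin, so the chalazal step was compared between them: chalazal minus the mean of the other endosperm parts, less chalazal minus general seed coat. ATG8H was the 1 member called, with a larger step in endosperm (6.39% of all probe sets had a larger and 7.32% a smaller one). With 1 of 4 micropylar and peripheral arrays above background, its step was 2.60 in endosperm and -0.26 in seed coat (difference of steps 2.85 ± 0.84; adjusted p = 0.0214). This was lost without either chalazal seed coat array (adjusted p = 0.105 and 0.0532), without the second general seed coat array (adjusted p = 0.125) or with no offset (adjusted p = 0.116). ATG8E ran the other way, with steps of -0.48 and 2.05, and just missed the threshold (adjusted p = 0.0508). ATG8B, ATG8D, ATG8F and ATG8G had steps of at least 0.95 in both tissues, that of ATG8B in endosperm resting partly on values below background.

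Whole seed holds all compartments in unknown shares. Set against their equal-weight mean, it was higher in ATG8B (1.49 ± 0.40; adjusted p = 0.0113; against 9.05% of all probe sets). It was lower in ATG8D (-1.02 ± 0.31; adjusted p = 0.0245; against 3.96% of all probe sets). ATG8B stood at 979 ± 2.43 in whole seed, below the means of both seed coat parts and above those of the other 5 compartments. ATG8D, at 772 ± 172 in whole seed, lay below the means of 6 compartments. With either whole seed array left out, both calls were lost (adjusted p = 0.178 and 0.159 for ATG8B, 0.116 and 0.370 for ATG8D), and ATG8D also with no intensity trend (adjusted p = 0.0690). ATG3, ATG8C, ATG8F, ATG8G and ATG8H differed from the mean of the compartments by less than the SE of the difference. The GAPDH ratio was 2.88 to 3.09 in whole seed and 4.67 or more on every compartment array. Its part in these differences was not tested.

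A list of 37 core autophagy genes, drawn up by locus with the role of each known, held 18 genes with a probe set of their own, the 8 members and 10 others on 11 probe sets. Chalazal seed coat had the highest mean of these others on all 11 probe sets, but its lead over the next compartment passed on 2, those of ATG1A and ATG101, which belongs to the same complex. The F test passed on 9 of the 11, and not for ATG16 (adjusted p = 0.0534) and ATG1T (adjusted p = 0.534). In the embryo, 8 of 11 were lower than in seed coat and 0 higher, against 13.6% and 10.1% of all probe sets. In endosperm, 5 were lower than in seed coat and 0 higher, against 19.9% and 11.8%. Chalazal seed coat exceeded general seed coat in 5 and was lower in 0, against 4.51% and 4.85%. At an unadjusted p under 0.05 in limma, the counts opposite to these stayed at 0. ATG1A, a kinase of the initiation complex, stood at 7905 ± 2132 in the chalazal and 1761 ± 124 in the general part (SD, n = 2 each; difference 2.12 ± 0.49; adjusted p = 0.00204) and at 215 ± 13.8 in chalazal endosperm. ATG1B, another such kinase, stood at 4589 ± 379 against 847 ± 368 (2.46 ± 0.46; adjusted p = 2.2e-04), but also at 2040.4 ± 382 in peripheral endosperm.

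The relatives outside the symbol rule complete the ATG8 family. ATG8A stood at 4111 ± 799.7 in the chalazal and 689 ± 69.4 in the general part of the seed coat (difference 2.52 ± 0.41; adjusted p = 4.3e-05), at 3230.3 ± 1102 in chalazal, 2909.6 ± 211 in micropylar and 621 ± 114 in peripheral endosperm, and at 1259 ± 52.1 in the suspensor against 291 ± 38.5 in the embryo proper (SD, n = 2, chalazal endosperm 3). ATG8I, the closest relative of ATG8H, did not follow it in the embryo, at 2102 ± 361 in the suspensor and 569.7 ± 122 in the embryo proper, all 4 arrays being above background. With these relatives, the embryo proper had the lowest mean for 6 of the 9 ATG8 genes, with chalazal seed coat highest for 4.

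**Figure D4:**
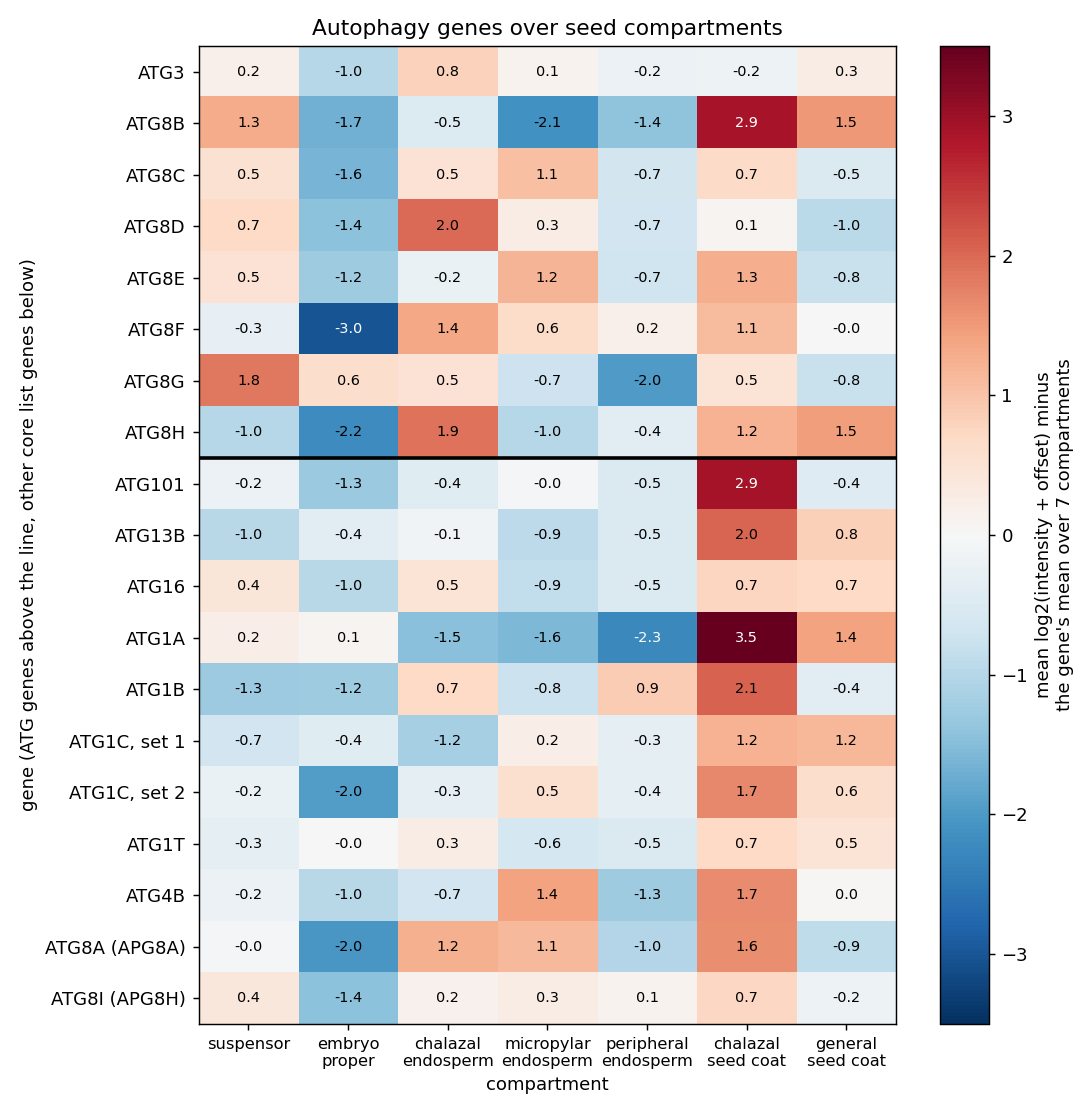
Mean log2(intensity + offset) of each gene in the 7 compartments, less the gene's mean over them, for the 8 ATG genes (above the line) and 11 probe sets of other core autophagy genes (below it). The embryo proper column is blue for most ATG genes, and the chalazal seed coat column is red for all other core genes.

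Of 19 partners and regulators, 4 had a probe set of their own, on 5 probe sets, and of 12 vacuolar proteases, 8 had. The suspensor exceeded the embryo proper in 6 of 8 proteases, against 8.25% of all probe sets, and in 0 of 5 partner probe sets (0 also at an unadjusted p under 0.05 in limma), which is close to that share. PASPA2, an aspartic protease of the vacuole, stood at 8607 ± 681 in the suspensor against 49.5 ± 5.05 in the embryo proper (SD, n = 2 each; at least 70.3-fold; adjusted p = 2.8e-08). CATHB3, a cathepsin B-like protease, stood at 4573 ± 887 against 961 ± 740.0 and was not above background on any array of micropylar or peripheral endosperm. Delta-VPE, a vacuolar processing enzyme of the seed coat, reached 16613 ± 914 in general seed coat, against 223 ± 50.8 in chalazal seed coat. Among partners, ATG14A, a subunit of the lipid kinase complex, was higher in chalazal than in general seed coat on 1 of its 2 probe sets (1054 ± 134 against 98.9 ± 57.3; adjusted p = 0.00758), while the other was near background throughout. SH3P2, which binds autophagosome membranes, and VPS38, another of the listed partners, were higher in chalazal than in peripheral endosperm, by 1.92 ± 0.61 (adjusted p = 0.0239) and 1.76 ± 0.47 (adjusted p = 0.00787).

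Over the 7 compartment means, the members followed each other loosely. The correlation of log2 levels was highest for ATG8C with ATG8E (r = 0.90) and ATG8C with ATG8F (0.81), and ATG3, whose product acts on all ATG8 proteins, followed ATG8F (0.81) and ATG8D (0.80) more than ATG8G (0.04). ATG8G lay at -0.18 with ATG8F, its subgroup relative, and ATG8H at 0.52 with ATG8I. These are descriptions over 7 points that share arrays and scaling, with values below background as they are. Among 6573 genes that passed the F test and a background filter, those most like ATG8D were AT2G20620 (r = 0.98), AT2G17030 (r = 0.97) and VPS2.1 (r = 0.97), of which VPS2.1 is a subunit of the ESCRT machinery that shapes endosomal membranes. Most like ATG8C were SAY1 (r = 0.99), AT5G61530 (r = 0.97) and USP (r = 0.97). For ATG8B they were AT2G21185 (r = 0.99), AT1G33780 (r = 0.99) and AT3G01210 (r = 0.98), and for ATG8F AT1G61150 (r = 0.98), AT1G18270 (r = 0.98) and AT3G47160 (r = 0.97). The nearest to ATG8H were AT4G38900 (r = 0.98), AT4G32130 (r = 0.97) and AT1G26130 (r = 0.96), to ATG8E AT5G18780 (r = 0.98), AT1G27290 (r = 0.97) and AT3G15430 (r = 0.96), to ATG3 AT3G63460 (r = 0.97), AT4G08170 (r = 0.95) and AT3G19900 (r = 0.94) and to ATG8G AT1G74680 (r = 0.94), TKL (r = 0.93) and AT4G39830 (r = 0.92). With so many candidates and 7 points, values this high are found for all 8 members.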

How the data were processed

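RNA from 17 samples in 8 groups was measured on ATH1 arrays, after amplification of 2 to 4 ng of total RNA per the labels' protocols. The authors deposited a table of intensities on a linear scale, made with GCOS per the submitters' processing notes, with no version or detection call in the sources used here. Every array has a mean without the top and bottom 2% of 500.0 to 500.1, hence was scaled as a whole, and medians were 97.4 to 179. Scaling makes a level relative to the rest of its array.

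In R 4.3.3, limma 3.58.1 gave each group its own mean on log2(intensity + 31), where 31 is the median of the array medians divided by 4, so differences of dim genes are understated. All 17 arrays entered 1 fit, with 9 residual degrees of freedom and eBayes with a trend on intensity. Tests were two-sided, and p-values were adjusted by Benjamini-Hochberg over the 22746 probe sets left without 64 controls. The 21 pairs were adjusted together. Folds are ratios of geometric means, and "at least" sets arrays of the dimmer side that are not above background at their limit. The annotation gives 13513 probe sets 1 gene, 503 several and 8730 none. Members, gene lists and tests were chosen with earlier results of these data known. The text names all members, the 3 genes most like each over the compartments and, from each list, the 3 genes with the smallest F test p; ATG8I, ATG101, ATG16 and ATG1T were added after their values were seen. The pipeline was tested on simulated data. Deviations of same-numbered arrays from their group means correlated between -0.0933 and 0.092 over 28 group pairs, so no shared shift of such arrays was seen. This cannot show whether same-numbered captures came from the same plants. Alternatives were other offsets, scalings, filters and variance models, array weights, a replicate block and each array left out.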

Additional observations from a re-analysis of the deposited data

Results flagged for a closer look

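ATG8H drew attention because its chalazal step differed between tissues by a test of the difference itself. Chalazal minus other endosperm was 2.60 and chalazal minus general seed coat was -0.26 on the log2 scale, a difference of 2.855 ± 0.84 (limma, adjusted p = 0.0214). The endosperm step is set by arrays of micropylar and peripheral endosperm of which 1 of 4 was above background, and with no offset the difference did not pass (adjusted p = 0.116). Groups had 2 or 3 arrays, too few for a test of single arrays that stand apart.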

How the results depend on the processing

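Of the called single-gene differences counted here, none changed sign under any alternative. Differences that were not called are left out, and under quantile scaling the leading compartment of ATG8E and of ATG8F changed. Of 38 single-gene calls, 24 held in all 25 alternatives; with 1 array left out 598 of 646 held, and under the other settings 287 of 304. The 5 comparisons within regions and the chalazal step were added after seeing the data. Of 3 steps between neighbours, an offset 4 times as large gave 6 and quantile scaling 5. With no intensity trend whole seed differed in 1 member in place of 2, and chalazal from general seed coat in 1, as with no offset; quantile scaling gave 4 there and array weights 6, in place of 2. The chalazal step was called in 0 members with no offset and in 2 with the larger offset, the dim filter or array weights, in place of 1. Micropylar differed from peripheral endosperm in 2 in place of 1 under the larger offset, a common 75th percentile or the dim filter, and chalazal from micropylar endosperm in 5 in place of 3 under the 75th percentile. The cause was not tested. With each array left out in turn, the members called were 7 to 8 by the F test, 1 to 4 for neighbours, 4 to 7, 4 to 4 and 2 to 3 for embryo against endosperm, embryo against seed coat and endosperm against seed coat, 0 to 2 for whole seed and 0 to 2 for the chalazal step. They were 4 to 5 for suspensor against embryo proper, 0 to 2 for micropylar against peripheral endosperm, 3 to 5 and 3 to 4 for chalazal against peripheral and micropylar endosperm, and 0 to 2 for chalazal against general seed coat. A group left with 1 array is taken to vary like the others.

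With the replicate number as a block, 7 members passed the F test in place of 8 and 5 in place of 6 separated embryo from endosperm. The calls lost were ATG3 by the F test (adjusted p = 0.0985), ATG8C for embryo against endosperm (adjusted p = 0.0842) and ATG8B for chalazal against micropylar endosperm (adjusted p = 0.0524). The labels do not say whether the numbers pair the samples. With 2 or 3 arrays a group, no detection calls and a limit taken from control probe sets, low levels such as ATG8H in the embryo are bounds, and whether probes of 1 ATG8 gene also catch another was not tested.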
